A study of Mus musculus with 4 samples.

Results

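Transcribed loci without a gene symbol are the rows of the deposited expression table whose gene field is empty. A locus was kept when its level reached 1 FPKM (fragments scaled by transcript length and by library size) in the higher of both conditions, and when the authors' software had tested it or left it untested for low coverage. Of 27542 rows, 3830 carried no symbol, and 1132 of these were kept. A further 2697 unnamed rows stayed below 1 FPKM, and 1 row, the mitochondrial genome, had another status and was listed at 0. The loci were thus chosen by the FPKM values that also give the difference between conditions, so those differences are descriptions. Of the 1132 loci, 652 reached the minimum in both conditions, 137 only in the KD and 343 only in the control, and those that reached it in 1 condition had to differ. The loci nearest to the minimum were at 1.00091, 1.00271 and 1.00316 FPKM on the inside and at 0.998875, 0.997771 and 0.997301 FPKM on the outside.

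Total RNA was sequenced from the mouse embryonic stem (ES) cell line TBV2, grown in serum with LIF, with feeder cells at high density named in the series description. The control (NT) was 1 library labelled N.T., with no knockdown. The knockdown (KD) was 3 libraries, each from a separate clone with a knockdown of T-UCstem1, which is a long noncoding RNA from an ultraconserved element. Both conditions share the line and the medium, and each KD library stands for 1 clone. The authors' table gives 1 value for the 3 clones together and 1 for the control, so no value below has an SD, and a difference particular to the single control culture cannot be told apart from one that follows the knockdown. The level of T-UCstem1 was not analysed here.

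When reads are assembled without a matching gene model, the resulting transcript keeps a serial identifier instead of a symbol. Such transcripts are known to include intergenic long noncoding RNA, transcripts of enhancers and of retroviral repeats, unspliced RNA of introns, extended ends of genes, and short stretches on which abundant small RNA or repeat reads pile up. ES cells are known for a rich intergenic transcription of this kind. A symbol says nothing of a transcript's function, so the unnamed loci are described here by where they lie, how long and how abundant they are, and which named genes are next to them. Coordinates are those of the table, on mouse build mm9, and identifiers beginning with XLOC are the table's own. Exons, introns and repeats at these positions were not analysed here, and no sequence is printed because no mm9 genome was used.

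The unnamed loci were on the whole lower in the KD than in the control. Of the 1132 loci, 362 had the higher value in the KD (32.0%) and 770 the lower, whereas 51.4% of all 13462 rows at 1 FPKM or more were higher in the KD. Among 12330 rows with a symbol at the same minimum, 53.1% were higher in the KD. On the scale of log2((KD FPKM + 1)/(NT FPKM + 1)), used for every log2 difference below, the unnamed loci had a median of -0.24 with quartiles of -0.53 and 0.11. Rows with a symbol had a median of 0.022 with quartiles of -0.16 and 0.22. Among the 652 loci at 1 FPKM or more in both conditions the median was -0.14, with 34.5% higher in the KD, against 0.0096 and 51.5% for the 11461 rows with a symbol that met the same condition. The difference in medians is descriptive, since each condition has 1 value and loci are not replicates. In bulk RNA, fewer cells of a type and less RNA per cell cannot be told apart.

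**Figure D1:**
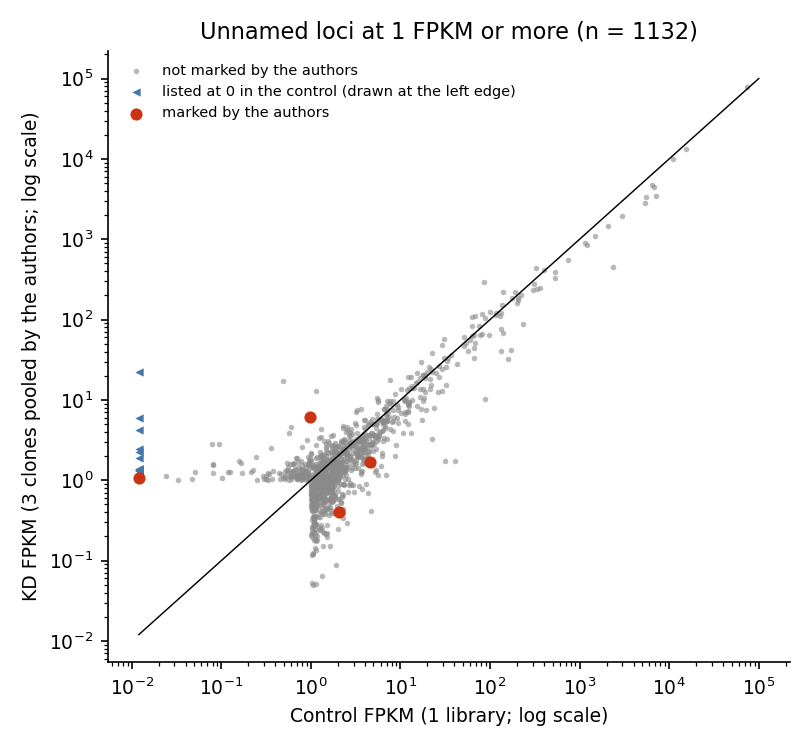
Each point is 1 unnamed locus, with its FPKM in the control library on the x axis and in the pooled KD on the y axis, both on log scales, and the line marks equal values. The 4 loci marked by the authors are red, the loci listed at 0 in the control are drawn at the left edge, and more points lie under the line (770) than above it (362).

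Lower values in the KD were seen at every level of abundance. Among loci at 1 to 2 FPKM, 30.7% of 626 were higher in the KD, against 63.3% of 1284 rows with a symbol at that level. At 2 to 5 FPKM the shares were 35.6% of 275 loci and 54.7% of 2014 rows with a symbol. At 5 to 20 FPKM they were 30.4% of 135 loci and 49.1% of 4674 rows with a symbol. At 20 to 100 FPKM they were 34.7% of 49 loci and 53.3% of 3525 rows with a symbol. At 100 FPKM or more they were 29.8% of 47 loci and 55.5% of 833 rows with a symbol. In this class the loci had a median length of 157 bases against 14404 for rows with a symbol, so equal FPKM is not equal abundance. Median log2 differences of the unnamed loci ran from -0.32 at 100 FPKM or more to -0.13 at 20 to 100 FPKM. Those of rows with a symbol ran from -0.0061 to 0.12.

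**Figure D2:**
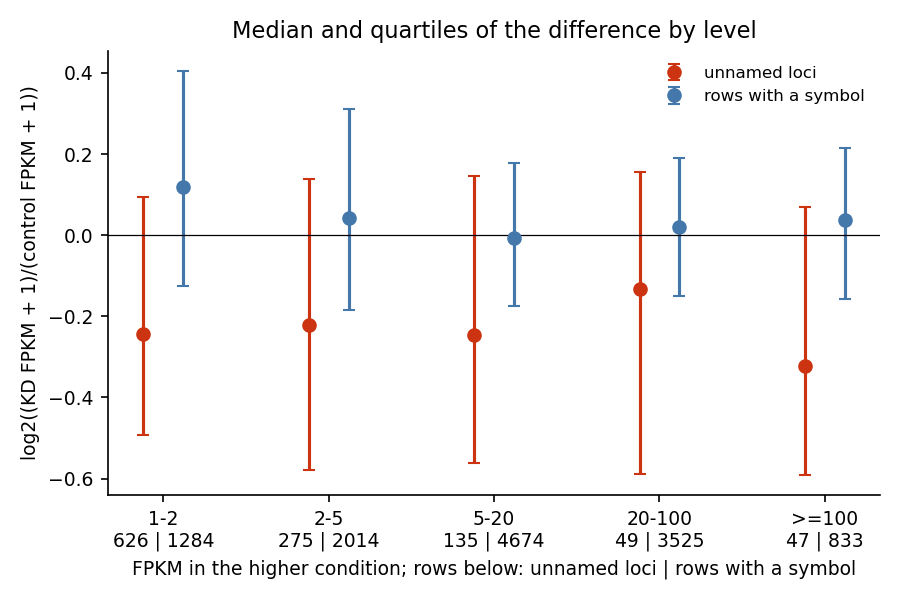
Points are medians and bars the quartiles of the log2 difference, for unnamed loci (red) and rows with a symbol (blue) in 5 classes of FPKM in the higher condition, with the number of rows under each class. The red median lies below the blue in each class, and the quartile ranges overlap.

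The biotypes of named genes give a scale for this shift. GENCODE M21 held the symbol of 11430 of the 12330 rows (92.7%). Protein-coding rows had a median of 0.023 (11070 rows) and antisense RNA rows one of -0.034 (76 rows). Rows of long intergenic noncoding RNA had a median of -0.19, with 36.2% of 94 rows higher in the KD, and rows of processed transcripts had one of -0.080 with 36.9% of 65 higher. The annotated intergenic noncoding RNA therefore had a median between that of coding genes and that of the unnamed loci. Among its 94 rows, however, 6 were at least 2-fold higher in the KD and 2 at least 2-fold lower, and the 2 marked rows were higher. Rows of small nucleolar RNA had a median of -0.74 (15 rows) and rows of microRNA one of -0.10 (16 rows). These differences were not tested.

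Few single loci passed the authors' test. Of the 1131 loci tested in the authors' deposited table, 4 were marked (0.354%), 2 higher and 2 lower, against 1.15% of all 15477 tested rows. Of all tested rows 0.963% were marked as higher and 0.187% as lower. All tested rows include rows below 1 FPKM, and among rows with a symbol the marked share rose with level. At 1 to 2 FPKM it was 0.160% of loci against 0.468% of rows with a symbol. At 2 to 5 FPKM it was 0.727% against 0.993%, and at 5 to 20 FPKM 0.741% against 1.46%. At 20 FPKM or more 0 loci were marked. At an unadjusted p under 0.05 in the authors' table, 26 loci were higher in the KD (2.30%, against 6.10% of all tested rows) and 52 were lower (4.59%, against 2.78%).

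XLOC_027114, on the X chromosome from 70640573 to 70647111, rose from 0.970 to 6.07 FPKM with the knockdown, a log2 difference of 1.84 for which the authors' deposited table gives q = 0.0150. It lies 9.33 kb from Zfp92, a zinc-finger gene listed at 0.0230 FPKM for the control and 0.0382 for the KD. The locus was therefore far more abundant than its nearest named neighbour. XLOC_021576, on chromosome 7 from 58417199 to 58428536, rose to 1.08 FPKM from a listed 0, with q = 0.00815 in the authors' deposited table. The next named row, Nell1, a secreted growth-factor-like protein gene, is 299 kb away and was below 0.1 FPKM in both conditions.

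The 2 marked loci that fell did not overlap a named row either. XLOC_023733, on chromosome 8 from 80590188 to 80612608, fell from 2.05 to 0.400 FPKM, a log2 difference of -1.12 with q = 0.00815 in the authors' deposited table. Its nearest named row, Ttc29, a gene of sperm flagella, is 125 kb away and was at 1.65 FPKM in control cells against 1.15 in KD cells. XLOC_026134, on chromosome 9 from 118300449 to 118315302, fell from 4.61 to 1.68 FPKM, a log2 difference of -1.06 with q = 0.0204 in the authors' deposited table. It is 23.7 kb from 4933432G23Rik, a row listed at 0 in control cells and reached 0.0292 FPKM in KD cells. None of the 4 marked loci shared its coordinates with another row.

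Large differences went in both directions. A log2 difference of at least 2 is 4-fold after 1 FPKM is added to each value. It was seen for 5 loci in the upward direction (0.442%, against 0.721% of all rows at 1 FPKM or more) and for 8 in the downward direction (0.707%, against 0.111%). With a pseudocount of 0.1 in place of 1 the numbers were 40 and 45, and the share over all rows was not computed at that setting. A 2-fold difference was reached by 5.65% of the unnamed loci downward and 3.45% upward, against 0.543% and 3.13% of rows with a symbol. None of the 13 loci past 4-fold on this scale was marked by the authors. Without the pseudocount, however, the marked XLOC_027114 was 6.26-fold higher in the KD and the marked XLOC_023733 5.11-fold lower. The marked XLOC_026134 was 2.74-fold lower, and XLOC_021576 has no ratio because its control value is listed at 0.

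The largest decreases among loci with at least 5 FPKM in the higher condition were mixed in kind. XLOC_004658, a stretch of 37462 bases on chromosome 11 (121773615 to 121811077), stood at 40.3 FPKM in control cells against 1.76 in KD cells, with q = 0.963 in the authors' deposited table. XLOC_007434, on chromosome 14 from 99738384 to 99830940, was at 31.7 FPKM in control cells against 1.73 in KD cells, with q = 0.998 in the authors' deposited table. It begins 24.1 kb beyond Klf5, a pluripotency transcription factor gene that was at 152 FPKM in control cells against 105 in KD cells. Neither locus passed the authors' test despite log2 differences of -3.90 and -3.58.

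Short loci make up much of the rest. XLOC_001422, 117 bases on chromosome 1, was at 2334 FPKM in control cells against 455 in KD cells. XLOC_024664, 162 bases on chromosome 8, was at 88.0 and 10.4 FPKM, and XLOC_011124, 188 bases on chromosome 17, at 160 and 31.9 FPKM. XLOC_005727, 146 bases on chromosome 12, was at 173 and 41.8 FPKM. All 4 were lower in the KD and were not marked, with q between 0.282 and 0.864 in the authors' deposited table. The other members of the 10 largest decreases, XLOC_023358, XLOC_011054, XLOC_016303 and XLOC_001451, had log2 differences of -2.46, -1.88, -1.70 and -1.67.

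Among the increases, the largest were in places listed at or near 0 in the control. XLOC_004713 and XLOC_004710, both on chromosome 11, were listed at 0 in control cells and reached 22.2 and 5.88 FPKM in KD cells. XLOC_004711, between them, was likewise listed at 0 in control cells and reached 1.18 FPKM in KD cells, so that these 3 loci, from 48565127 to 48567345, had a listed level in the KD alone. They lie between 46.5 and 48.5 kb from Gnb2l1, an abundant ribosomal scaffold gene at 1386 FPKM in KD cells against 1502 in control cells. None of these loci was marked, with q of 0.460, 0.582 and 0.305 in the authors' deposited table.

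A second group lies at Gm2042 on chromosome 12. XLOC_005852, which shares the stretch from 89158257 to 89257495 with this predicted gene, was at 17.1 FPKM in KD cells against 0.486 in control cells. The gene has 2 rows there, of which 1 was listed at 0 in both conditions and the other at 0 for the control and 8.03 FPKM for the KD. XLOC_005118, the next locus along, was listed at 0 in control cells and reached 1.88 FPKM in KD cells. These rows other than the one at 0 were higher in the KD, and neither unnamed locus was marked. Of the other large increases, XLOC_018022 lies in a stretch of chromosome 4 shared by 26 rows (12.8 against 1.15 FPKM) and XLOC_005706, 136 bases on chromosome 12, was at 293 against 84.9 FPKM. XLOC_013224, XLOC_017087, XLOC_018035 and XLOC_018034 completed the 10 with log2 differences of 1.82, 1.10, 0.98 and 0.94. XLOC_018035 and XLOC_018034 share a stretch with Gm13154, which went the other way, at 76.4 FPKM in KD cells against 228 in control cells.

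Detection in the KD with a listed value of 0 in the control was found for 15 loci, and the reverse for 0 loci. Of the 12330 rows with a symbol, 26 were listed at 0 in the control and 6 in the KD. The KD value combines 3 libraries and the control value is from 1, and the part of this in the listed zeros was not tested. Their KD values ran from 1.08 to 22.2 FPKM with a median of 1.38 FPKM. Only XLOC_021576 among them was marked. A listed 0 may be a failed estimate, so no ratio is given. In lone unnamed rows of at least 1.5 kb the lowest step of control FPKM times length in kb was 0.0363, seen in 5 rows. If that is the worth of 1 fragment, 1 FPKM on 1 kb would be about 27.5 control fragments. The depth of the KD clones is unknown.

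The unnamed loci were low and short compared with named genes. Their median FPKM in the higher condition was 1.80, with quartiles of 1.30 and 3.89, against 12.4 for rows with a symbol. Median locus length was 2632 bases, with a range from 104 to 936776 bases, against 29598 bases for rows with a symbol. The table's locus is the merged stretch of all rows that overlap, so the length of a shared locus is not that of a transcript. The 1132 loci had 1007 distinct stretches, and 851 loci were alone on theirs. Of the remaining 281, 125 shared their stretch with a row that has a symbol (11.0%) and 156 with unnamed rows only.

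Abundance and length were tied among the shortest loci. The 51 loci under 200 bases had a median of 205 FPKM in the higher condition, the 153 loci of 200 to 500 bases one of 2.94 FPKM, and the 179 loci of 500 to 1000 bases one of 1.34 FPKM. Of the 50 most abundant loci, 48 were under 500 bases and 41 under 200 bases. Over the 851 loci alone on their stretch, log10 length and log10 FPKM had a Pearson r of -0.39 and a Spearman rho of -0.25. These points share both libraries, and FPKM divides by length, so the correlation is a description only. Loci under 200 bases held 95.8% of the summed FPKM of all unnamed loci in the KD and 95.6% in the control.

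**Figure D3:**
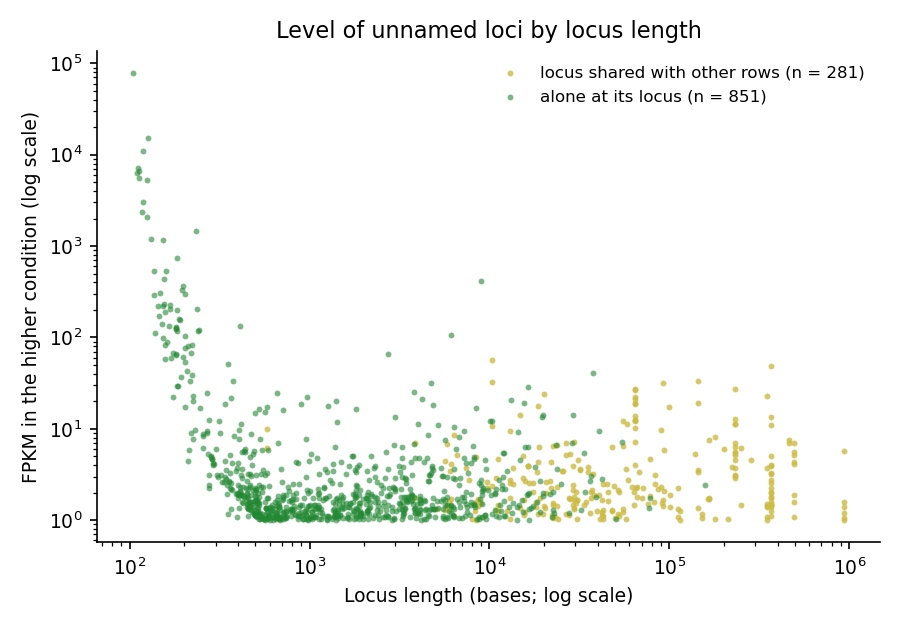
Each point is 1 unnamed locus, with the length of its stretch in bases on the x axis and its FPKM in the higher condition on the y axis, both on log scales. Loci alone on their stretch (green, 851) reach the highest values under 200 bases, and loci that share a stretch (yellow, 281) lie mostly at long lengths.

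The most abundant single locus was XLOC_009043, 104 bases on chromosome 15 (93510337 to 93510441), at 78163 FPKM in KD cells against 73869 in control cells. It alone held 57.1% of the summed FPKM of the unnamed loci in the KD and 47.8% in the control. It lies 84.0 kb from Prickle1, a planar polarity gene at 1.10 FPKM in KD cells against 0.484 in control cells. XLOC_017870, 126 bases on chromosome 4, followed with 13106 FPKM in KD cells against 15370 in control cells, and XLOC_006815, 118 bases on chromosome 13, with 9889 and 11061 FPKM. Of the 8 most abundant loci, XLOC_009043 had the higher value in the KD and the other 7 the lower, none of them marked by the authors.

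The further 5 of these 8 differed more between conditions. XLOC_006979, 111 bases on chromosome 13, was at 3471 FPKM in KD cells against 7066 in control cells, a log2 difference of -1.03. XLOC_015116, 124 bases on chromosome 2, was at 2805 and 5307 FPKM, and XLOC_004668, 112 bases on chromosome 11, at 3317 and 5582 FPKM. XLOC_011271 on chromosome 17 and XLOC_002705 on chromosome 10 had log2 differences of -0.57 and -0.44. On stretches this short the FPKM rests on few positions, and the authors' q for the 5 loci was between 0.927 and 0.999. XLOC_009043, XLOC_002705, XLOC_006979, XLOC_004668 and XLOC_011271 were also the 5 shortest loci. At the other end, 6 loci tie as the longest, in 1 stretch of 936776 bases on chromosome 19 that also holds Trpm3, an ion channel gene, and Mir204. Their log2 differences ran from -0.54 to 0.22.

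Most loci of each length class were lower in the KD. The share of loci higher in the KD was 29.4% under 200 bases, 37.9% at 200 to 500 bases, 33.0% at 500 to 1000 bases, 29.2% at 1 to 5 kb and 30.6% at 5 to 20 kb. It was 28.6% from 20 to 100 kb and 39.8% above that. Loci that shared a stretch had a median log2 difference of -0.24, as had loci alone on theirs.

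The order of the table gave a further property. Along a chromosome the rows run through the coordinates 3 times. In the first run 98.0% of the rows whose symbol GENCODE assigns to a strand were on the plus strand, and in the second 1.83% were. The third run held 3074 rows, of which 3052 had no symbol. Of the 1132 unnamed loci, 197 were in the first run, 208 in the second and 727 (64.2%) in the third. The table itself states no strand. Median length was 9605 bases in the first run, 7324 in the second and 965 in the third. Median log2 differences were -0.18, -0.22 and -0.27, so the direction was the same in all 3 runs.

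Of the 1132 unnamed loci, 474 shared a stretch with a named row or lay within 5 kb of one. Distances of other positions in the genome were not computed, so these distances have no background. For the loci not sharing a stretch with a named row, the median distance to the nearest one was 11.2 kb. Within 5 kb lay 349 loci, from 5 to 50 kb 468, from 50 to 200 kb 142, and beyond 200 kb 48. The farthest was 1752 kb from any named row. The share higher in the KD was 27.2% among loci sharing a stretch with a named row, 27.8% within 5 kb, 31.6% from 5 to 50 kb, and 38.7% from 50 to 200 kb. Beyond 200 kb it was 58.3%, with a median log2 difference of 0.095. The difference between distance classes was not tested, and of the 48 loci in the last class 18 are on chromosome 12, where 12 were higher, while 16 of the other 30 were higher.

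Unnamed loci were compared with their nearest named row where that row reached 1 FPKM. For 312 loci within 5 kb of 269 different named rows, the loci had a median log2 difference of -0.23 and the neighbours one of 0.0054. Of the 312 loci, 68.3% had a lower log2 difference than their neighbour. Pearson's r between locus and neighbour was 0.32 and Spearman's rho 0.28. The 125 loci that share a stretch with 1 of 70 named rows had an r of 0.43 and a rho of 0.27, and 355 loci from 5 to 50 kb away an r of 0.25 and a rho of 0.19. All points share the same libraries and many share a neighbour, so these correlations are descriptions. Neighbours were far more abundant, with a median of 22.3 FPKM within 5 kb against 1.68 FPKM for the loci.

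The few unnamed loci close to genes that the authors marked had the direction of the gene, but for most of them the choice of loci set that direction. Lower values were also common among all unnamed loci, 770 of 1132, and whether the loci follow the marked gene was not tested. Between 1 base and 50 kb from 7 marked genes that fell lay 17 loci, all 17 lower in the KD, with a median log2 difference of -0.59. Only XLOC_000840, XLOC_001421, XLOC_002770 and XLOC_024393 among them reached 1 FPKM in both conditions. The others were kept through the control alone and had to be lower. Of the 17 loci, 10 lie at Sall1, several of them on 1 shared stretch or close after it, and the other 7 had a median of -0.51. For 10 of the 17 the marked gene was also the nearest named row. XLOC_022067, 1.32 kb from Ifitm1, an interferon-inducible membrane protein gene, was at 0.714 against 1.49 FPKM. XLOC_000840 and XLOC_001421 lie near Clk1, a splicing-factor kinase gene, and XLOC_011162, XLOC_007010, XLOC_014132 and XLOC_002770 near Zfp229, Gm2373, Ly75 and Mmp11. The 2 further loci on the stretch of Gm2373 itself, XLOC_007008 and XLOC_007009, were also lower, at 0.411 against 4.65 FPKM and 0.593 against 1.83 FPKM, while the gene fell from 106 to 42.4 FPKM. Both loci were likewise kept through the control alone. At the same distances from marked genes that rose lay 3 loci, all 3 higher. All 3 were under 1 FPKM in the control, so they were kept through the KD alone and had to be higher. XLOC_011896, 27.6 kb from Gata6, a transcription factor of primitive endoderm, was at 1.65 FPKM in KD cells against 0.165 in control cells, and Gata6 itself at 9.67 and 1.18 FPKM. XLOC_017394, 13.4 kb from Gm12794, was at 1.31 and 0.573 FPKM. The other is XLOC_005852, described above, which lies 23.1 kb from Gm2022, a predicted gene at 6.46 FPKM for the KD and listed at 0 for the control. None of these loci was itself marked.

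Unnamed loci were gathered in some places. Windows of 1 Mb that held at least 9 of them, chosen after their counts were seen, numbered 8. On chromosome 8 the window from 91000000 to 92000000, around Sall1, a zinc-finger partner of the NuRD repressor in ES cells, held 11 loci. All 11 were lower in the KD, with log2 differences from -1.45 to -0.30 and a median of -0.74. All but XLOC_024393 were under 1 FPKM in the KD. They were kept through the control alone and so had to be lower. Among all 1132 unnamed loci, 770 were lower. The 11 loci are not replicates, since XLOC_023815 and XLOC_024393 share 1 stretch, which ends at 91582318. XLOC_024763, XLOC_024764, XLOC_024765 and XLOC_024766 follow it closely, from 91582853 to 91589509. Whether some of these loci are pieces of 1 transcript was not tested. XLOC_023812, at lower coordinates than the gene, was at 0.291 FPKM in KD cells against 2.52 in control cells. XLOC_023813, on the same side and 3.11 kb from Sall1, was at 0.339 and 2.28 FPKM. The most abundant, XLOC_024393, was at 7.41 and 9.35 FPKM. Sall1 fell from 64.0 to 34.2 FPKM, a log2 difference of -0.89 with q = 0.0276 in the authors' deposited table. The smallest q among its unnamed neighbours was 0.335.

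The window from 44000000 to 45000000 on the same chromosome holds Zfp42, which encodes the naive pluripotency marker REX1, and Triml1 and Triml2, genes of the preimplantation embryo. It had 23 unnamed loci, 19 lower and 4 higher in the KD, with a median log2 difference of -0.49. Of these, 13 share the stretch of the Triml genes. The most abundant of them, XLOC_024684, was at 19.2 FPKM in KD cells against 26.9 in control cells. XLOC_024695, XLOC_024696 and XLOC_024697, in the interval between the Triml genes and Zfp42, were at 0.713, 0.868 and 0.848 FPKM in the KD and at 2.63, 2.69 and 3.46 FPKM in the control. XLOC_024700, next to Zfp42, went the other way with 2.26 FPKM in KD cells against 1.25 in control cells. XLOC_024695, XLOC_024696, XLOC_024697, XLOC_024704 and XLOC_024705 were under 1 FPKM in the KD. They were kept through the control alone and had to be lower. XLOC_024693 was under 1 FPKM in the control and had to be higher. Zfp42 was at 572 FPKM in KD cells against 511 in control cells, and Triml2 at 139 and 130 FPKM. Triml1 was lower in the KD, at 68.2 and 78.3 FPKM, and none of the 3 genes was marked. The smallest q among the loci was 0.201 in the authors' deposited table.

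**Figure D4:**
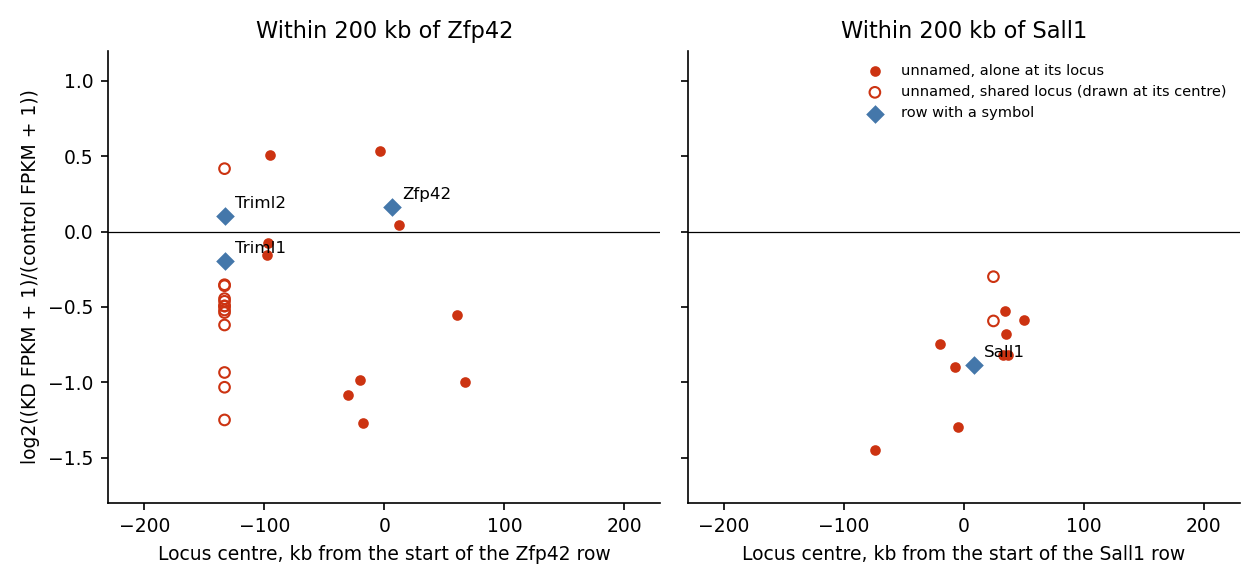
The y axis is the log2 difference and the x axis the distance in kb of each locus centre from the start of the Zfp42 row (left) or the Sall1 row (right), for unnamed loci (red) and rows with a symbol (blue). All 11 unnamed loci around Sall1 lie below 0 with the gene, while 19 of 23 around Zfp42 lie below 0 and Zfp42 itself lies above it. In both panels some loci share a stretch or lie close together, so the points are not replicates.

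Between Pabpc1, the cytoplasmic poly(A)-binding protein gene, and Ywhaz, a 14-3-3 adaptor gene, on chromosome 15 lay 9 loci, from 36598985 to 36649409. Of these, 8 were lower in the KD and 1 was higher, with a median log2 difference of -0.38. Only XLOC_008509, XLOC_008966 and XLOC_008968 reached 1 FPKM in both conditions. The others were kept through the control alone and had to be lower. The 9 loci are not replicates, since several lie close together. XLOC_008968, XLOC_008969, XLOC_008970 and XLOC_008971 follow one another from 36609424 to 36619528. Whether some of the loci are pieces of 1 transcript was not tested. XLOC_008509 was at 1.42 FPKM in KD cells against 3.14 in control cells, and XLOC_008966, the one that was higher, at 4.67 and 2.51 FPKM. Pabpc1 was at 599 FPKM in KD cells against 674 in control cells. The smallest q among these loci was 0.534 in the authors' deposited table.

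The other 5 dense windows include several with zinc-finger genes in tandem, where near-identical copies may split or share reads, so their values are uncertain. The window from 66000000 to 67000000 on chromosome 13 held 35 loci, 16 higher and 19 lower in the KD, with a median of -0.041. There, 23 loci share 1 stretch of 368375 bases, in which XLOC_006180 was the most abundant at 48.4 FPKM in KD cells against 29.3 in control cells. The window before it, from 65000000, had 11 of 13 loci higher and a median of 0.15. The window from 61000000 on the same chromosome, with Zfp808, had 8 of 9 loci lower and a median of -0.15. On chromosome 4 the window from 145000000, with Gm13212 and Rex2, had 15 of 22 loci lower and a median of -0.17. The window from 22000000 on chromosome 17, with Zfp942 to Zfp947, had 10 of 16 loci higher and a median of 0.081. The direction thus differed from one window to the next, and the smallest q in the 5 windows was 0.795. Loci that reached 1 FPKM in 1 condition only are counted here too, and the choice of loci set their direction.

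On chromosome 12 the stretch from 17 to 25 Mb, whose bounds were chosen after its values were seen, held 28 unnamed loci, 18 higher and 10 lower in the KD, with a median log2 difference of 0.30, and 14 rows with a symbol with a median of 0.18. Of the 28 loci, 19 were shorter than 1000 bases. Some of the 28 reached 1 FPKM in 1 condition only, so the choice of loci set their direction. XLOC_005703 was at 3.43 FPKM in KD cells against 1.31 in control cells, and XLOC_005733 at 38.7 and 22.8 FPKM. XLOC_005706 and XLOC_005727, described above with the largest differences, lie in this stretch and go in opposite directions. The 18 loci of chromosome 12 beyond 200 kb from a named row had a median of 0.32, and the 30 such loci of other chromosomes one of 0.065.

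All 19 autosomes and the X chromosome held unnamed loci, and 0 loci were on the Y chromosome or on the unplaced contigs, which held 127 rows. Chromosome 13 had the most, with 102 loci, or 18.2% of its loci and named rows together, and chromosome 11 the smallest share at 4.50%. The chromosome median of the unnamed loci was below 0 on 19 of the 20 and below that of rows with a symbol on the same 19. It was lowest on chromosome 10 at -0.47 (57 loci), where named rows were also low with a median of -0.16. On chromosome 15 it was -0.44 (52 loci), with a named median of 0.051. On chromosome 6, where named rows were higher in general with a median of 0.26, the unnamed loci had a median of -0.13 (37 loci). The X chromosome was the exception, with a median of 0.16 over 30 loci and 18 of them higher, and a median of 0.11 for named rows.

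**Figure D5:**
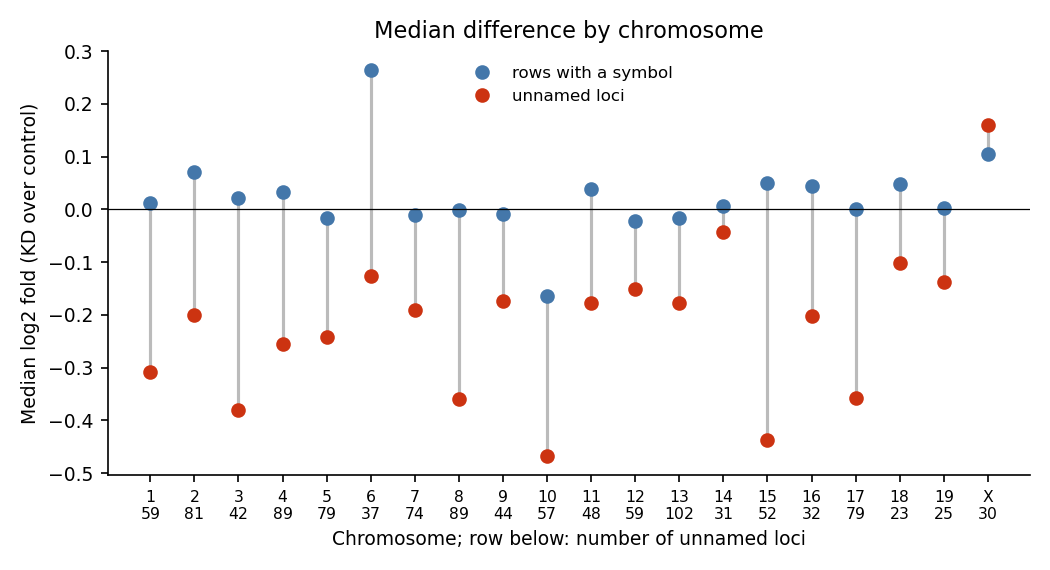
For each chromosome, the y axis gives the median log2 difference of unnamed loci (red, with their number under the axis) and of rows with a symbol (blue). The red point lies below the blue on 19 of 20 chromosomes, and the X chromosome is the one where it lies above.

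The cell labels were checked on marker genes. Of 10 ES cell markers 9 were found, with a summed level of 3590 FPKM in KD cells against 3493 in control cells, none marked. Primitive endoderm markers summed to 402 and 55.9 FPKM, with 9 of 10 marked. Fibroblast markers, which feeder cells would carry, summed to 153 and 59.0 FPKM, with 3 of 10 marked (Vim, Tnc and Fbln2). Vim alone was at 102 and 42.8 FPKM and so made up most of both sums. Of the 8 that reached 1 FPKM, 7 were higher in the KD, and Pdgfrb was slightly lower at 2.57 against 2.73 FPKM. Of 8 markers of the totipotent-like state 7 were listed at 0 in the control, and Tcstv1 and Tcstv3 were listed at 0 in the KD as well. The list summed to 16.7 FPKM in the KD, with 2 of 8 marked. Most of that sum came from Zscan4c, Zscan4d and Zscan4f, at 4.77, 4.09 and 6.77 FPKM. The summed endoderm and fibroblast markers were thus higher in the KD, while the unnamed loci were mostly lower, and the part of a changed cell mixture in the loci's values was not tested.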

How the data were processed

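Per the submitters' processing notes, TopHat, Cufflinks and Cuffdiff were run with mouse build mm9 on libraries of 1 control and 3 KD clones. For versions, options, annotation, strand and scaling the entry is: not given in the sources used here. Each row deposited by the authors has 1 FPKM for a condition named treated, read here as the 3 KD clones combined, and 1 for control, per the file headers. The deposited p-value and q-value are Cuffdiff's, and the authors' mark was used as the call; the largest q among marked rows was 0.0478. Reads per library are not stated.

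From these values log2((KD FPKM + 1)/(NT FPKM + 1)) was computed with Python 3.11.15, pandas 2.3.3 and scipy 1.17.1. The pseudocount of 1 understates differences of low loci. Distance was the gap in bases to the nearest row with a symbol, 0 for an overlap, and among several overlapping rows the most abundant was taken. Symbols were matched to GENCODE M21 (GRCm38) for biotype and strand only, with no coordinates carried over. The code was tested on simulated data. No test across samples was possible with 1 value per condition. Alternatives were other FPKM minimums, a pseudocount of 0.1, merged neighbours, a stricter q and subsets of loci.

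Loci named in the text were the marked ones, the 10 largest differences each way among those with at least 5 FPKM, the 8 most abundant, the 5 longest and 5 shortest, those next to the minimum and those at 0 in one condition. Loci in dense windows, beside marked genes and in the chromosome 12 stretch were chosen after their values were seen. The choice of loci and lists was made with earlier results of these data known.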

Additional observations from a re-analysis of the deposited data

How the results depend on the processing

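The share of unnamed loci higher in the KD was 32.0% and ran from 30.1% to 32.9% over 8 alternatives, 2 of them (loci alone on their stretch, and loci of at least 200 bases) chosen after the data were seen. The median log2 difference, -0.24 in the main setting, was -0.16 with no FPKM minimum and -0.36 with a pseudocount of 0.1, and stayed below 0 in all 9 alternatives run. The 4 loci marked by the authors became 1 with a minimum of 5 FPKM, 7 with no minimum and 2 at a q of at most 0.01. The 125 loci overlapping a row with a symbol became 41 with a minimum of 5 FPKM, 296 with no minimum, 69 with loci under 1000 bases apart merged, and 474 when a distance of up to 5 kb counted. The 13 loci past a 4-fold difference became 85 with a pseudocount of 0.1, and 8 both among loci alone on their stretch and among those of at least 200 bases. For these alternatives the share over all rows was not computed. No replicate could be left out, since the table holds 1 value per condition. No paired analysis was possible because the control has 1 library and the values of the clones are pooled. The depth of the libraries is unknown, and with it the counting error of each locus.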
